A study of Mus musculus with 12 samples.

Results

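The Mir290 to Mir295 cluster is a run of miRNA hairpin genes on mouse chromosome 7, and its 7 members (Mir290, Mir291a, Mir292, Mir291b, Mir293, Mir294 and Mir295) were taken by symbol from a small RNA-seq table of 32101 annotated features. All 7 were found once each, on chromosome 7. The values come from 12 libraries of RNAs of 20 to 24 nt from mouse embryonic stem cells (ESCs), the pluripotent cells of the early embryo grown in culture, labelled as the E14 background. The libraries fell into 3 genotype groups by label. WT had 6 libraries (A and B of the numbers 1, 2 and 3), the knockout of Dnmt1 (Dnmt1 -/-, here Dnmt1 KO), the enzyme that maintains DNA methylation through replication, had 2 (A and B), and the combined knockout labelled Dicer/Dnmt1 -/- (here Dicer/Dnmt1 KO) had 4 (1A, 1B, 2A and 2B).

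Both knockout groups lack Dnmt1 by label, and the second lacks Dicer as well, the ribonuclease that cuts hairpin precursors into mature miRNAs. According to the methods of the study, conditional alleles were deleted in culture by a Cre recombinase that 4OHT switched on, and cells were kept with or without feeder cells. The study also made a line with a constitutive Dicer deletion by CRISPR/Cas9 in the conditional Dnmt1 cells. Which kind of Dicer deletion the Dicer/Dnmt1 KO libraries carry is not given by the labels. The labels give no time since deletion. Every library was counted as a replicate, although the labels do not say whether A and B with the same number are separate cultures or repeat libraries of the same RNA. The design text speaks of technical replicates without naming them, so p-values here measure the spread between libraries, which may be partly technical. WT 2A and 2B were placed in WT by their genotype label, Wildtype, since their titles hold only E14 and the number. The labels do not say whether WT cells were uninduced cells of the knockout lines. The methods describe the conditional Dnmt1 line as being of another strain than E14, so that line and genotype cannot be told apart.

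Primary transcripts of such clusters are cut first in the nucleus into hairpins, each of which Dicer then cuts in the cytoplasm into a pair of short strands, the 5p and the 3p arm. One strand is loaded into an ARGONAUTE protein, where bases 2 to 8 of the strand, the seed, choose the mRNAs that it represses. The Mir290 to Mir295 cluster is the best known source of miRNAs in mouse ESCs, where its miRNAs speed up the passage through G1 phase and help to hold the pluripotent state, and the Mir302 cluster carries the same seed.

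The 7 hairpins lay on the plus strand within 2216 bases (genome build NCBIM37). They were, in genomic order, Mir290 at chr7:3218627-3218709, Mir291a at chr7:3218920-3219001, Mir292 at chr7:3219190-3219271, Mir291b at chr7:3219483-3219561, Mir293 at chr7:3220344-3220423, Mir294 at chr7:3220642-3220725 and Mir295 at chr7:3220774-3220842. Hairpins were 69 to 84 nt long and the gaps between them 48 to 782 nt, the shortest between Mir294 and Mir295. None of the 7 overlapped another feature of the table. RefSeq now places further hairpins, Mir290b and Mir292b, on the opposite strand of Mir290 and Mir292, and as counting did not separate strands, their reads cannot be told apart from those of Mir290 and Mir292. The neighbouring features were AU018091, which ended 49423 bases before Mir290, and Nlrp12, which began 669 bases after Mir295, both on the minus strand and with at most 6 and 1 reads in a library.

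Mature sequences of the members were read from RefSeq (GRCm38.p6), where Mir290 is listed as Mir290a. The table held 13 of them, and each of the 13 matched the NCBIM37 genome exactly once, inside its own hairpin. They are shown because the arms and their seeds are what sets the members apart, while the counts pool both arms of a hairpin. Capitals mark the seed, bases 2 to 8 from the 5′ end. Of the 6 arms from the 3p side, 5 held the letters AAGUGC in the seed, and the exception was that of Mir293, which opens with agugccgc, a run that lies inside the 3p arm of Mir290.
mmu-miR-291a-3p: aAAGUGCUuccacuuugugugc
mmu-miR-294-3p: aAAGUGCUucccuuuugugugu
mmu-miR-295-3p: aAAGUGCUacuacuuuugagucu
mmu-miR-290a-3p: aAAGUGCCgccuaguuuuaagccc
mmu-miR-291b-3p: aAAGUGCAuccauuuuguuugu
mmu-miR-293-3p: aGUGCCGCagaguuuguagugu
The 3p arm of Mir292, mmu-miR-292a-3p, is named only.

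The seed AAGUGCU was thus common to the 3p arms of Mir291a, Mir294 and Mir295. It occurred in 5 of the 1738 mature sequences of the RefSeq table, which lacked the 3p arm of Mir302a, so that arm was not compared. The other 2 belonged to the Mir302 cluster on chromosome 3.
mmu-miR-302b-3p: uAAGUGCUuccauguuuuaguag
mmu-miR-302d-3p: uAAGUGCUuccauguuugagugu
On the 5p side, Mir290, Mir292 and Mir293 had the seed CUCAAAC, which no other sequence of the table carried. Mir294 and Mir295 differed from it in the last base of the seed (CUCAAAA and CUCAAAU).
mmu-miR-290a-5p: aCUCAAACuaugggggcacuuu
mmu-miR-292a-5p: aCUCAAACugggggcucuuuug
mmu-miR-293-5p: aCUCAAACugugugacauuuug
The 5p arms of Mir291a and Mir291b were the closest pair of the cluster.
mmu-miR-291a-5p: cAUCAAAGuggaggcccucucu
mmu-miR-291b-5p: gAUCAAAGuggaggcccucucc
They shared a run of 20 nt (aucaaaguggaggcccucuc), and the next longest run shared by mature arms of different members was 11 nt, between mmu-miR-291a-3p and mmu-miR-294-3p. Reads of 20 nt were kept by the authors, so a read of that run alone fits both Mir291a and Mir291b. The placing of reads with several positions is not given in the sources used here.

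Library reads ran from 8710 to 245184, and levels are given as RPM, the reads of a feature per 1000000 library reads, in which 1 read was worth 4.08 to 115 RPM. Where no read was seen, up to 3 reads (12.2 to 344 RPM, by depth) would be allowed. Of the reads assigned to features of the table, annotated miRNAs took 29.5% to 65.8% in WT, and 51.4% and 53.4% in the Dnmt1 KO pair. Their share was 6.55% to 12.7% where Dicer was lost too. The WT 2 pair stood apart from the other WT libraries, with the highest miRNA shares (65.8% and 45.3%), and 59.4% and 35.9% of its miRNA reads came from Mir182 against 9.80% to 17.1% in the other 4. Of 12 ESC transcripts (Pou5f1, Nanog, Sox2 and others) fragments summed to between 0 and 63 reads per library, none of the 12 being absent from all libraries. The sums were 0 to 320 RPM in WT, with WT 2A at 0, 14.8 and 102 RPM in the Dnmt1 KO pair and 133 to 653 RPM with Dicer also lost. These counts were too low to check the labelled cell type.

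Together the members held 6.80% ± 2.37 of WT library reads (SD, n = 6) and 7.74% ± 3.08 of those from Dnmt1 KO (SD, n = 2). With Dicer also lost, they held 0.261% ± 0.0983 (SD, n = 4). The cluster had 28125 to 91543 RPM in the WT libraries and 99190 and 55619 RPM in Dnmt1 KO A and B. In the order 1A, 1B, 2A and 2B, which is kept below, the Dicer/Dnmt1 KO libraries had 3471, 2985, 2791 and 1201 RPM. Every Dicer/Dnmt1 KO library was therefore below the lowest WT library, and both Dnmt1 KO libraries were above it. The lowest WT library was WT 2A, and the 4 libraries of WT 1 and WT 3 ranged from 65412 to 91543 RPM.

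Within miRNA reads alone, the cluster took 18.0% ± 8.53 in WT against 12.01% ± 4.44 in Dnmt1 KO and 2.94% ± 1.15 in Dicer/Dnmt1 KO (SD over 6, 2 and 4 libraries). This share was 21.3% to 25.4% in the 4 libraries of WT 1 and WT 3 and 4.05% (95% Wilson interval 3.70% to 4.43%) in WT 2A and 10.9% in WT 2B. Dicer/Dnmt1 KO 1B, with 26 cluster reads, had 4.47% (3.07% to 6.47%), so on this scale the groups overlapped through WT 2A. Once Mir182 was set aside, the cluster took 9.98% and 17.1% of the other miRNA reads in WT 2A and 2B, 25.7% to 28.3% in the other WT libraries, 22.4% and 13.5% in the Dnmt1 KO pair, and 1.74% to 5.30% in the 4 libraries without Dicer. On that count no Dicer/Dnmt1 KO library reached a WT library, but Mir182 was picked from these same libraries, so this separation is no independent evidence. The intervals describe counting error alone, as PCR copies of a molecule could not be recognised in these reads.

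**Figure D1:**
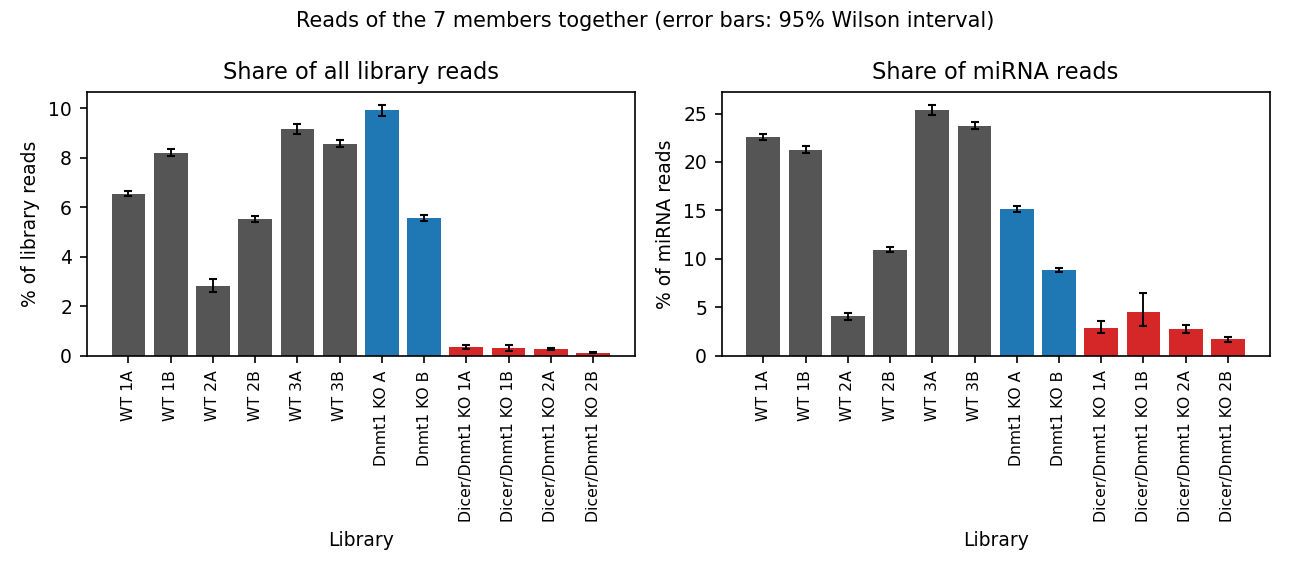
Reads of the 7 members together in each library, as a percentage of all library reads (left) and of miRNA reads (right), with 95% Wilson intervals as error bars. Grey bars are WT, blue bars Dnmt1 KO and red bars Dicer/Dnmt1 KO. The 4 Dicer/Dnmt1 KO libraries lie lowest on the left, from 0.120% to 0.347%, while on the right WT 2A (4.05%) falls among them.

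The members differed widely in level within WT. Per length of hairpin, the order of mean levels in WT was Mir295 (376778 RPM per kb), Mir292 (310684), Mir293 (109867), Mir291a (38506), Mir294 (32382), Mir291b (20383) and Mir290 (2906). Mir295 was above Mir292 in 4 of 6 WT libraries and Mir291a above Mir294 in 3 of 6, so that these neighbours in the order cannot be ranked. The steps from Mir292 to Mir293 and from Mir293 to Mir291a held in 6 of 6 libraries, and that from Mir294 to Mir291b in 5 of 6. Mir291b was above Mir290 in 6 of 6 per length, but in WT 2A both had 2 reads and only hairpin length set them apart, and in WT 2B they had 62 and 55 reads. Among annotated miRNAs, Mir295 and Mir292 ranked 4 and 5 by mean RPM in WT, and Mir290 ranked 71.

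In Dnmt1 KO, Mir292 (461677 RPM per kb) stood above Mir295 (267710) in both libraries, as it also did in WT 2A and 2B, and Mir291b (6273) was the lowest, next to Mir290 (7606), with 1 library ranking them each way. In Dicer/Dnmt1 KO the first 4 places were those of WT. Mir295 (21564 RPM per kb) was above Mir292 (7126) in 4 of 4 libraries and Mir292 above Mir293 (2785) in 4 of 4. The lowest 3, Mir290 (1006), Mir294 (631) and Mir291b (434), each had a library with 0 reads and could not be ordered.

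The comparison of Dicer/Dnmt1 KO with WT asked what was left of these miRNAs after loss of Dicer on a Dnmt1-deficient background. All 7 members passed the filter on low values, which needs 111 RPM in 2 libraries, and 4 of them would have passed it in the Dicer/Dnmt1 KO libraries alone. All 7 fell. The median of their log2 fold changes was -5.44, beside -0.09 over all 683 tested features and -2.75 over the 133 tested miRNAs. Of all tested features 19% were called lower in this contrast, and of the tested miRNAs 60.9%, so a miRNA was more often lower than not. Where groups are said below not to overlap, the number of other features that did not overlap was not counted. Calls are Benjamini-Hochberg adjusted p under 0.05 in limma over all 683 features, and fold changes are on the log2(RPM + 10) scale after scaling by trimmed means, which understates the change of members with few reads. Fewer such cells in a library and less miRNA per cell cannot be told apart in bulk RNA.

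The hairpins whose 3p arm carries AAGUGCU were Mir295, Mir291a and Mir294. Mir295, the most abundant of them and the most 3′ of the cluster, had 5266 to 40717 RPM in WT (median 28033, n = 6). The 4 Dicer/Dnmt1 KO libraries had 1715, 1607, 1939 and 690 RPM, from 42, 14, 123 and 104 reads. The groups did not overlap, and the log2 fold change was -4.78 (SE 0.39, limma adjusted p 8.15e-07). After Mir290, it was the member with the smallest fold change.

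Mir294 had 1301 to 4282 RPM in WT (median 2526) against 81.7, 0, 110 and 19.9 RPM in Dicer/Dnmt1 KO, which were 2, 0, 7 and 3 reads. Its log2 fold change was -6.45 (SE 0.52, limma adjusted p 7.77e-07). Mir291a had 2342 to 5471 RPM in WT (median 2738) and 245, 230, 63.1 and 46.4 RPM in Dicer/Dnmt1 KO, from 6, 2, 4 and 7 reads and changed by -5.38 on the log2 scale (SE 0.50, limma adjusted p 2.5e-06). Both were below every WT library in every Dicer/Dnmt1 KO library, although single libraries rested on a handful of reads.

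Mir292, Mir293 and Mir290 share the 5p seed CUCAAAC. Mir292 had 13629 to 34782 RPM in WT (median 25799) and 1021, 574, 457 and 285 RPM in Dicer/Dnmt1 KO, from 25, 5, 29 and 43 reads. Its log2 fold change was -6.34 (SE 0.36, limma adjusted p 1.16e-07), and it had the lowest p of all 683 features. Mir293 had 4584 to 13798 RPM in WT (median 8424) and 367, 344, 126 and 53.1 RPM in Dicer/Dnmt1 KO, which gave -6.32 on the log2 scale (SE 0.44, limma adjusted p 3.17e-07). Neither had a library in which the groups met.

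Mir290, the first hairpin and the least abundant, had the smallest and the least certain fall. It had 124 to 392 RPM in WT (median 229), from 2 to 67 reads, and 0, 230, 31.5 and 73.0 RPM in Dicer/Dnmt1 KO, from 0, 2, 2 and 11 reads. The groups overlapped. The log2 fold change was -2.74 (SE 0.64, limma adjusted p 0.00513), and the call was lost without Dicer/Dnmt1 KO 2A (-2.28, limma adjusted p 0.0572), with the replicate block (-2.69, limma adjusted p 0.0740) and with no filter on low values (limma adjusted p 0.116).

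Mir291b, whose 3p seed AAGUGCA was shared only with mmu-miR-350-5p in the RefSeq table, had 124 to 2799 RPM in WT (median 1922) and 40.8, 0, 63.1 and 33.2 RPM in Dicer/Dnmt1 KO, from 1, 0, 4 and 5 reads. Its log2 fold change was -5.44 (SE 0.67, limma adjusted p 2.15e-05). The groups did not overlap, with the lowest WT value in WT 2A, where it rested on 2 reads.

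The size of these falls moved with the scaling. With library reads alone the median of all tested features moved by 0.70 in this contrast, and the members had -2.15 (Mir290) to -5.88 (Mir294), with 7 of 7 still called. With that scaling 84 features were called higher and 116 lower, against 35 and 130 with scaling by trimmed means. Without the WT 2 pair the 7 members were called lower again, from -2.39 for Mir290 to -6.46 for Mir294, and Mir291b moved most, to -6.17. In that setting 61 of all tested features were called higher and 134 lower.

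**Figure D2:**
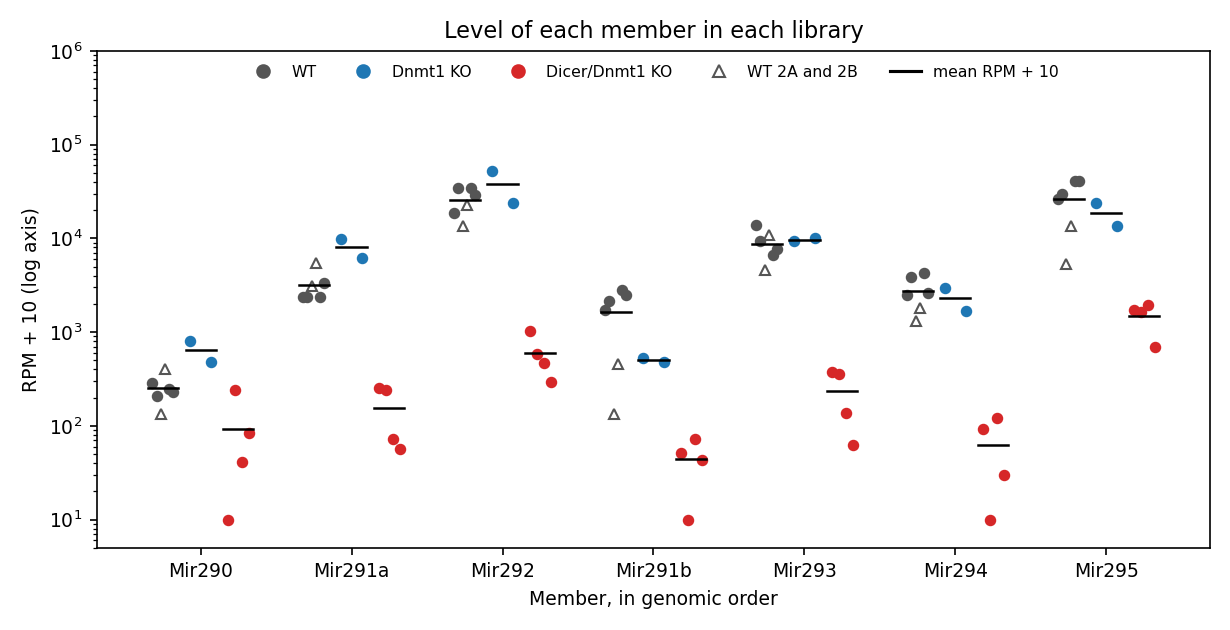
Level of each member in each library, as RPM + 10 on a log axis, in genomic order. Grey, blue and red points are WT, Dnmt1 KO and Dicer/Dnmt1 KO libraries, open triangles are WT 2A and 2B, and black bars are group means. Red points lie below the other groups for 6 members and overlap WT for Mir290, and the open triangles of Mir291b and Mir295 are the lowest of WT.

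The comparison of Dicer/Dnmt1 KO with Dnmt1 KO sets groups side by side that differ by label in Dicer alone. All 7 members were lower, with a median log2 fold change of -6.43 beside -0.16 over all tested features and -4.17 over tested miRNAs. Of all tested features 21.7% were called lower, and of tested miRNAs 74.4%. The Dicer/Dnmt1 KO libraries are the same as in the comparison with WT, so the comparisons are not independent. With library reads alone the median of all features moved by 0.91 here, 24 features were called higher and 127 lower against 8 and 148 with trimmed means, and the 7 members were still called, from -3.53 to -6.03.

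Mir292 went from 52129 and 23586 RPM in Dnmt1 KO A and B to the levels given above, by -7.03 on the log2 scale (SE 0.49, limma adjusted p 1.24e-06). Mir291a had 9885 and 6087 RPM in Dnmt1 KO and changed by -6.91 (SE 0.67, limma adjusted p 7.11e-06). Mir293 (9397 and 9944 RPM) had -6.70 (SE 0.59, limma adjusted p 4.19e-06) and Mir294 (2911 and 1673 RPM) -6.43 (SE 0.70, limma adjusted p 1.63e-05). None of these 4 members overlapped between the groups. How many of all tested features were likewise apart was not counted.

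The falls of Mir295, Mir291b and Mir290 were smaller. Mir295 had 23553 and 13391 RPM in Dnmt1 KO and changed by -4.68 (SE 0.53, limma adjusted p 2.11e-05). Mir291b had 517 and 474 RPM, with -4.52 (SE 0.89, limma adjusted p 0.00136), and Mir290 798 and 465 RPM, with -4.29 (SE 0.86, limma adjusted p 0.00159). No Dicer/Dnmt1 KO library reached a Dnmt1 KO library in any of the 3, and here too such separation was not counted over all tested features. The call of Mir290 was lost without Dnmt1 KO A (-3.92, limma adjusted p 0.0544).

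The comparison of Dnmt1 KO with WT set the levels of the members in cells without the maintenance methyltransferase against those in WT. No member passed the test in limma, nor with voom weights (0 of 7 in both). The median log2 fold change of the members was 0.38, beside 0.13 over all tested features and 1.40 over tested miRNAs. An unadjusted limma p under 0.05 was found for 1 of 7 members, beside 125 of 683 tested features and 56 of 133 tested miRNAs. Of all tested features 6.59% were called higher and 0.293% lower, and of tested miRNAs 21.1% higher and 0.752% lower. With 2 Dnmt1 KO libraries the intervals were wide.

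Mir290 had 798 and 465 RPM in Dnmt1 KO, both above the highest WT library (392 RPM), and a log2 fold change of 1.54 (95% interval -0.21 to 3.30, limma adjusted p 0.331). Mir291a had 9885 and 6087 RPM, also both above the highest WT library (5471 RPM, in WT 2B), and 1.53 (95% interval 0.15 to 2.90, limma adjusted p 0.212). The interval is not adjusted for the number of features, which is why it leaves out 0 while the call is missed.

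Mir292 had a log2 fold change of 0.70 (95% interval -0.29 to 1.68) and Mir293 of 0.38 (-0.81 to 1.58), with Dnmt1 KO A above the WT range for Mir292 and both libraries inside it for Mir293. Mir294 had -0.02 (-1.44 to 1.40) and Mir295 -0.10 (-1.17 to 0.98), both inside the WT range. Their signs turned with scaling by snoRNAs and snRNAs, which moved the median of all features by 0.38, to 0.40 and 0.32. Mir291b had 517 and 474 RPM, above both libraries of WT 2 (124 and 442 RPM) and below all 4 of WT 1 and WT 3 (1713 to 2799 RPM), and a log2 fold change of -0.92 (-2.74 to 0.89, limma adjusted p 0.610).

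Without the WT 2 pair, 2 of 7 members were called in this comparison, in opposite directions. Mir291a rose by 1.90 (SE 0.52, limma adjusted p 0.0223) and Mir291b fell by 1.85 (SE 0.63, limma adjusted p 0.0480) on the log2 scale. The other 5 were not called, with Mir290 at 1.66 (limma adjusted p 0.204) and Mir295 at -0.62 (limma adjusted p 0.269). In that setting 96 of the 660 tested features were called higher and 85 lower. Members were thus called about as often as tested features in general. Whether WT 2 or the other WT libraries are the better match to Dnmt1 KO is not given by the labels.

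Levels of 15 miRNAs typical of differentiated cells, among them Mir21, Mir22 and Mir143, summed to 9911 to 15542 RPM in WT. They summed to 41594 and 49569 RPM in Dnmt1 KO A and B, and to between 12886 and 41922 RPM in the Dicer/Dnmt1 KO libraries. In WT most of these reads were of Mir21 and Mir22, which ESCs also express. Mir199a-1 and Mirlet7c-1 had 0 reads in all libraries. Of 8 fibroblast transcripts that feeder cells would bring, fragments summed to 0 to 97.3 RPM in WT and 59.1 and 83.6 RPM in Dnmt1 KO. They reached 81.7 to 425 RPM in Dicer/Dnmt1 KO, highest in 2B, and Thy1 had 0 reads in all libraries. As reads, no WT library held more than 14 of these fragments, and neither Dnmt1 KO library more than 9. The 4 libraries without Dicer held 2, 1, 9 and 64 reads, and in 2B Fn1 gave 28 of them and Sparc 22. Outside 2B these counts were too low to rank the groups. The part of these levels in the values of the cluster was not tested.

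**Figure D3:**
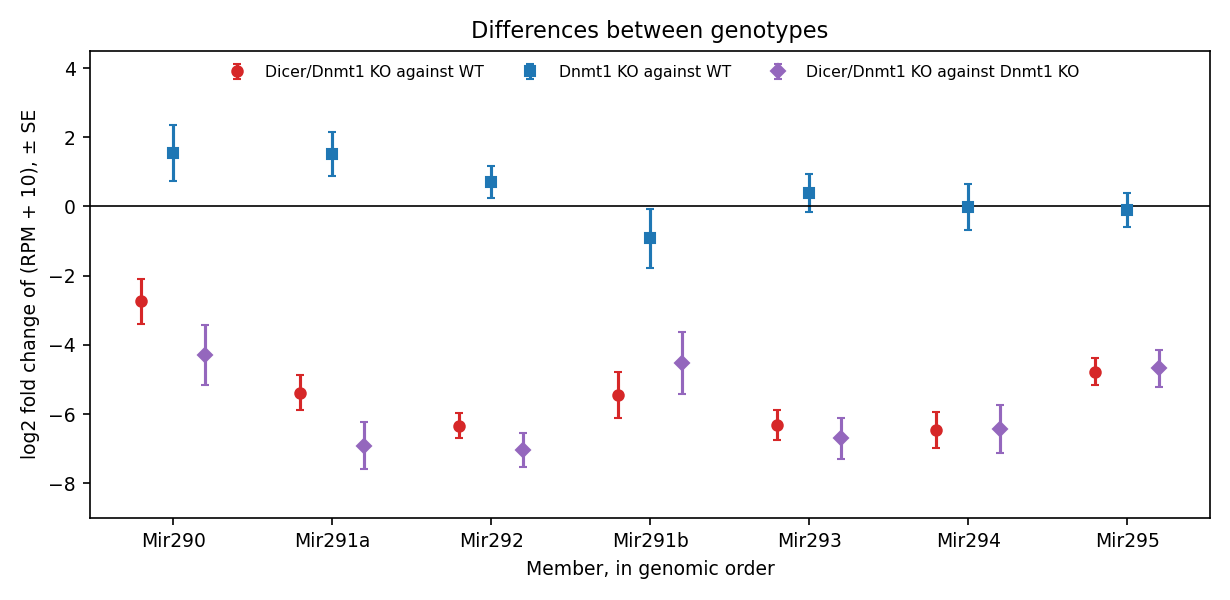
Log2 fold changes of the 7 members with their standard errors in the 3 comparisons, on the log2(RPM + 10) scale. Red circles and purple diamonds, the comparisons with loss of Dicer, lie between -2.74 and -7.03, and blue squares, Dnmt1 KO against WT, between -0.92 and 1.54, on both sides of 0.

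Ratios between members within a library do not depend on how libraries are scaled. Mir291a and Mir291b were near equal in WT 1 and WT 3, with 0.837 to 1.38 Mir291a reads per Mir291b read in the 4 libraries. In WT 2A and 2B there were 25.0 and 12.4 Mir291a reads per Mir291b read, and in Dnmt1 KO A and B 19.1 and 12.8. For this ratio the WT 2 pair thus lay with Dnmt1 KO and not with the other WT libraries, and WT 2A rested on 50 and 2 reads. In Dicer/Dnmt1 KO the reads of Mir291a and Mir291b were 6 and 1, 2 and 0, 4 and 4, and 7 and 5.

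The ratio of Mir292 to Mir295 divided the libraries likewise. It was 0.720, 1.14, 0.860 and 0.705 in WT 1A, 1B, 3A and 3B, and 2.59 and 1.70 in WT 2A and 2B, next to 2.21 and 1.76 in Dnmt1 KO A and B. In Dicer/Dnmt1 KO it was 0.595, 0.357, 0.236 and 0.413, below every other library. The log2 ratio of Mir292 to Mir294 was 2.93 to 3.67 in the 6 WT libraries, WT 2 included. It was 4.16 and 3.81 in Dnmt1 KO A and B, above that range, and 1.98 to 3.64 in Dicer/Dnmt1 KO.

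**Figure D4:**
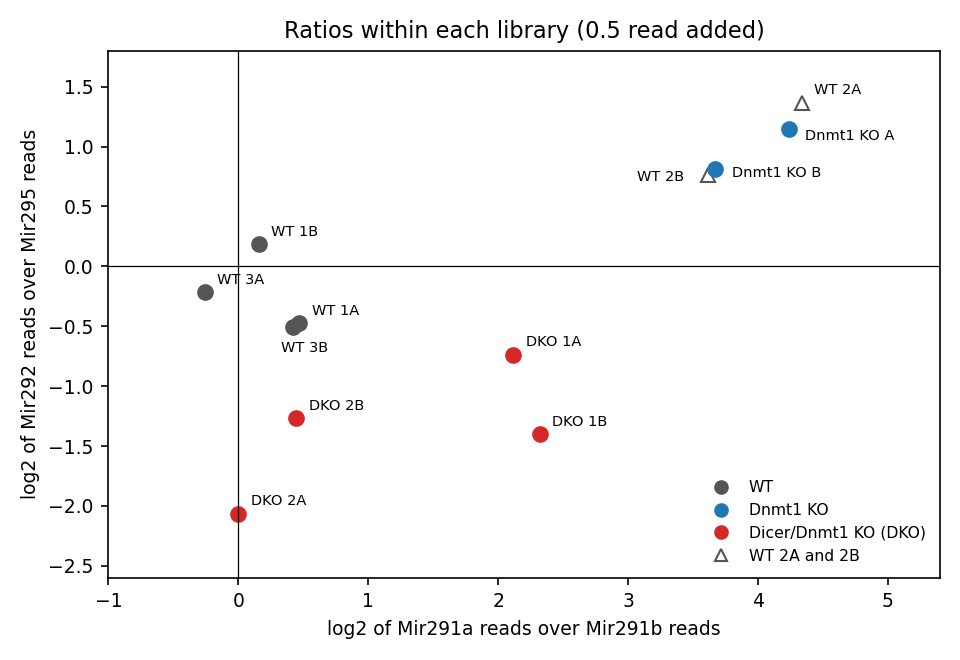
Log2 ratio of Mir292 to Mir295 reads against log2 ratio of Mir291a to Mir291b reads in each library, with 0.5 read added to each count. Open triangles are WT 2A and 2B. They lie with the 2 Dnmt1 KO libraries at Mir291a to Mir291b ratios from 3.62 to 4.34, the other 4 WT libraries lie between -0.26 and 0.47, and the 4 Dicer/Dnmt1 KO libraries (DKO) are the lowest on the vertical axis.

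As shares of the reads of the cluster, Mir292 and Mir295 together made up most of every library. Mir295 took 35.2% ± 11.4 in WT, against 23.9% ± 0.235 in Dnmt1 KO and 57.6% ± 8.61 in Dicer/Dnmt1 KO (SD over 6, 2 and 4 libraries). Its share was 49.4%, 53.8%, 69.5% and 57.5% in the 4 Dicer/Dnmt1 KO libraries, above the highest WT library (47.6% in WT 3B). The 95% Wilson interval of Dicer/Dnmt1 KO 1B, with 26 cluster reads, was 35.5% to 71.2%.

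Mir292 went the other way, with 38.6% ± 6.91 in WT and 47.5% ± 7.18 in Dnmt1 KO, and then 22.2% ± 5.69 in Dicer/Dnmt1 KO, where 3 of 4 libraries were below the WT range. In the same order of groups, Mir293 took 14.1% ± 5.75, 13.7% ± 5.94 and 7.77% ± 3.83, and Mir294 4.01% ± 0.771, 2.97% ± 0.0516 and 1.99% ± 1.64. Mir291a took 5.64% ± 3.77, 10.5% ± 0.692 and 5.22% ± 2.59. Mir291b took 2.06% ± 1.14, 0.687% ± 0.234 and 1.55% ± 1.23, and Mir290 0.388% ± 0.179, 0.820% ± 0.0219 and 3.72% ± 3.74, the last from 15 reads in 4 libraries.

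By seed, the 3 hairpins with AAGUGCU on the 3p arm held 44.9% ± 7.80 of cluster reads in WT and 37.3% ± 0.978 in Dnmt1 KO, beside 64.8% ± 7.497 in Dicer/Dnmt1 KO. The 3 with CUCAAAC on the 5p arm held 53.1% ± 8.88, 62.0% ± 1.21 and 33.7% ± 8.14. Members of a seed group did not move together between WT and Dicer/Dnmt1 KO. Of the AAGUGCU hairpins Mir295 alone rose (35.2% to 57.6%), while Mir291a went from 5.64% to 5.22% and Mir294 from 4.01% to 1.99%. Among the CUCAAAC hairpins Mir292 and Mir293 fell, and Mir290 rose from 0.388% to 3.72% on few reads. Which arm a read came from is not in the table, so these are shares of hairpins and not of seeds.

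**Figure D5:**
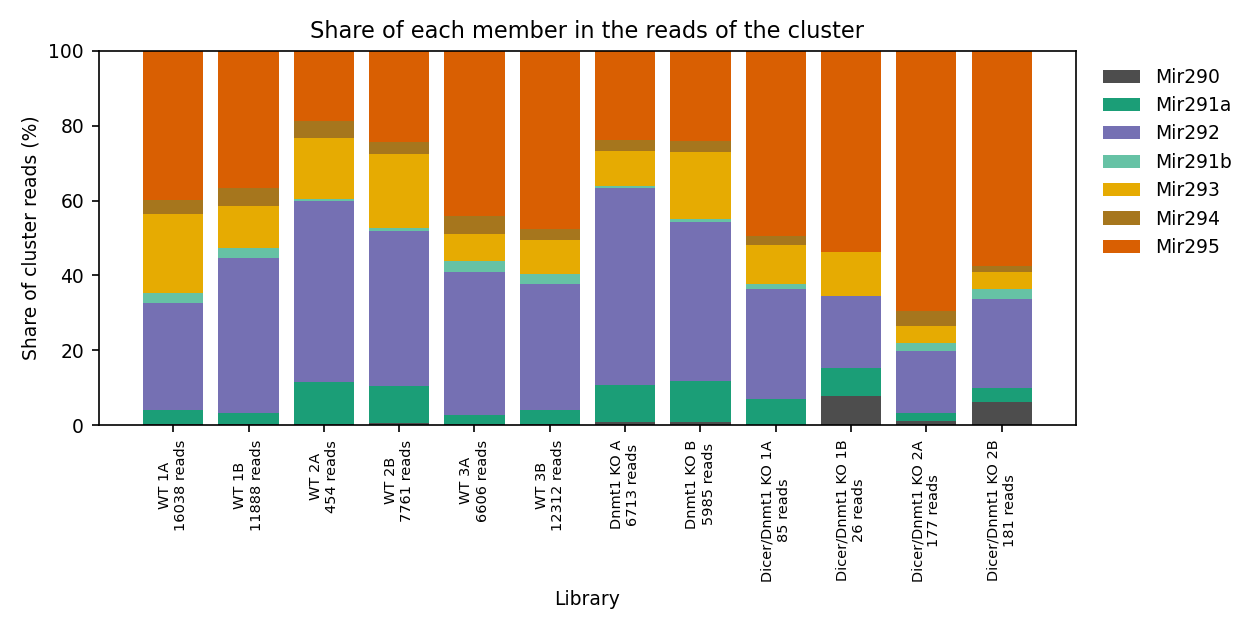
Share of each member in the reads of the cluster in each library, stacked in genomic order from the bottom, with the number of cluster reads under each library name. Mir295 (top, orange) is widest in the 4 Dicer/Dnmt1 KO libraries, from 49.4% to 69.5%, which rest on 26 to 181 reads, and narrowest in WT 2 and Dnmt1 KO, from 18.7% to 24.4%.

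Each member was set against the other 6 by a two-sided exact permutation test over libraries, on the log2 ratio of its reads to theirs with 0.5 read added to both, with adjustment over 21 tests. None of the 21 passed the adjusted threshold. With so few libraries a single member could not pass it even at the smallest p allowed, so this is no evidence of equal ratios. Against WT, the log2 ratio of Mir295 in Dicer/Dnmt1 KO was 1.38 higher (0.45 ± 0.52, SD, n = 4, against -0.93 ± 0.77, SD, n = 6, exact p = 0.00952, adjusted 0.133), and 0.00952 is the smallest p that 4 against 6 libraries allow. It lay outside the WT range in 4 of 4 libraries. Mir292 was 1.12 lower (-1.80 ± 0.46 against -0.68 ± 0.43, SD, n = 4 and 6, exact p = 0.0190, adjusted 0.133) and Mir290 2.86 higher (-5.18 ± 1.93 against -8.05 ± 0.64, SD, n = 4 and 6, exact p = 0.0190, adjusted 0.133), each outside the WT range in 3 of 4 libraries. For Mir290 this was partly set by depth and the added 0.5 read. In Dicer/Dnmt1 KO 1B, with 26 cluster reads, even a member with 0 reads had -5.73, above the highest WT value of Mir290 (-7.12). That library could not lie inside the WT range, and Mir290 had 15 reads in the whole group.

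Without the WT 2 pair the differences were 0.91 for Mir295, -0.93 for Mir292 and 3.23 for Mir290 (exact p = 0.0286, 0.0571 and 0.0286, adjusted 0.2 in each). The comparisons with Dnmt1 KO could not reach 0.05, since 2 against 6 libraries allow no p below 0.0714 and 4 against 2 none below 0.133. The lowest adjusted p in them was 0.25. In Dnmt1 KO the log2 ratio of Mir290 to the other 6 was above the whole WT range in both libraries (1.14 higher than WT, exact p = 0.0714). That of Mir294 was below it in both (0.43 lower, exact p = 0.0714). For Mir294, Dnmt1 KO B had -5.007 against -4.998 in WT 3B. The Wilson intervals of their shares of cluster reads overlapped (2.60% to 3.47% and 2.74% to 3.35%). For Mir290 the interval of WT 2B (0.545% to 0.921%) overlapped those of Dnmt1 KO A and B (0.617% to 1.05% and 0.634% to 1.10%). Neither separation was thus clear of counting error. Mir291b was 1.38 lower in Dnmt1 KO than in WT (exact p = 0.286), and 2.08 lower without the WT 2 pair (exact p = 0.133).

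Related miRNA clusters were counted over a list of 21 symbols, those of the Mir302 cluster, which shares the AAGUGCU seed, and of Mir17-92 with its paralogues, whose miR-17 relatives carry AAGUGC shifted by 1 base.
mmu-miR-17-5p: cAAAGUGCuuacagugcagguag
Of these 20 were in the table and 16 were tested. Against WT, 16 of 16 were lower in Dicer/Dnmt1 KO, with log2 fold changes of -8.20 to -2.83 (median -4.78), beside the 60.9% of tested miRNAs above. Against Dnmt1 KO, 14 of 16 were lower (median -4.07), beside 74.4% of tested miRNAs and 21.7% of all tested features. In Dnmt1 KO against WT, 1 of 16 was lower and none higher (median -0.76), the one being Mir20b (-2.38, limma adjusted p 0.00638).

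The 4 with most reads in WT were Mir92-1, Mir92-2, Mir25 and Mir93. Mir92-1 had -6.78 against WT (limma adjusted p 4.1e-07) and Mir92-2, which shares its mature 3p sequence, -8.20 (limma adjusted p 1.41e-05), while Mir25 had -5.55 (limma adjusted p 2.2e-06) and Mir93 -4.76 (limma adjusted p 3.07e-06). Mir302d and Mir302b, which have the seed of Mir291a, Mir294 and Mir295, were far less abundant than the cluster, at 1063 ± 477 RPM and 197 ± 116 RPM in WT (SD, n = 6). They had -5.39 and -3.40 in Dicer/Dnmt1 KO against WT (limma adjusted p 1e-05 and 0.0104). In Dnmt1 KO Mir302d had 279 ± 65.6 RPM and Mir302b 24.1 ± 7.75 RPM (SD, n = 2), with log2 fold changes of -1.56 and -1.78 that did not pass (limma adjusted p 0.2999 and 0.437).

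Features whose pattern over the 12 libraries was most like that of the summed cluster were found by Pearson correlation of log2(RPM + 10) among 676 tested features outside it. The highest were Mir17hg (0.985), the host transcript of Mir92-1, then Mir96 (0.984), Mir669c (0.983), Mir92-1 (0.982) and Mir708 (0.979), and Mir130a (0.976) was the next miRNA. Mir92-1 lies inside Mir17hg, so its reads also overlap the host. Mean levels in WT were 92270 RPM for Mir92-1 and 93471 RPM for Mir17hg, so these are not separate likenesses. The 12 points fall into genotype groups and share their library depths. Within the 6 WT libraries alone the same 6 features gave -0.64 (Mir130a) to 0.33 (Mir669c).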

How the data were processed

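Small RNA-seq was measured in 12 mouse ESC libraries. As the methods state, the authors trimmed reads, kept 20 to 24 nt, aligned with Bowtie2 to NCBIM37 and counted overlaps with annotated features in SeqMonk. The submitters' processing notes name Trim Galore 0.3.5 and Bowtie2 2.2.6, while the methods give a later Trim Galore version for other libraries of the study and in its list of software. Strands were not separated, and the handling of reads with several positions is not given in the sources used here. The deposited values are log2 RPM, made by the authors from read counts with 0.9 read written for 0. From them whole reads were recovered (100% within 0.05 of a whole number). The table holds 89 further value columns of no sample here, which were not used.

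The 7 members were taken by symbol. The members and lists were chosen with earlier results of these data known. All members are named, with the listed relatives by count and the 4 of highest WT reads as examples (Mir302b and Mir302d are added for their seed), and the 5 features of highest likeness. Features with 111 RPM in 2 libraries and 15 reads in all were tested (683). Trimmed means (30% and 5% trims) were computed in R 4.3.3, and log2(RPM + 10) was fitted with limma 3.58.1 over 12 libraries in 3 groups, with Benjamini-Hochberg adjustment at 0.05. The fit was tested on simulated data. Ratios within libraries were compared by exact permutation in Python 3.11.15. Depth was 8710 to 245184 reads, so members with few reads rest on wide counting error. The 25 settings compared other scalings, pseudocounts, filters, voom, left-out libraries, sums of A and B, and blocks.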

Additional observations from a re-analysis of the deposited data

Results flagged for a closer look

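Mir291a in WT 2B, at 5471 RPM, lay far from the other 5 WT libraries. The nearest of them had 3287 RPM, and the gap was 0.698 of the range of the group. It was the only such value among 32 groups of libraries examined, of which chance marks about 1 in 20. Without WT 2A and 2B, Mir291a differed between Dnmt1 KO and WT by 1.90 on the log2 scale (limma adjusted p 0.0223). Of the 660 features tested in that setting, 96 were called higher and 85 lower.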

How the results depend on the processing

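Of 511 refitted log2 fold changes of single members, 489 kept their direction and side of the threshold, and 304 of 315 ratios of a member to the other 6 kept their direction. Neither comparison with Dnmt1 KO could reach the threshold for a ratio, so its side says nothing there about stability. The number of members called was 6 to 7 of 7 when a library was left out in both comparisons with Dicer/Dnmt1 KO, and the member lost was Mir290. In Dnmt1 KO against WT it was 0 throughout those, and 2 without WT 2A and 2B. In that comparison the 47 features called became 31 with a pseudocount of 1, 80 with voom, 181 without WT 2A and 2B, 17 with A and B summed, 30 with the number in the title as a random block, and 16 to 84 when a library was left out. The lowest 2 were without Dnmt1 KO B (16) and A (19), and the highest without WT 2A (84). The log2 difference of the summed cluster was -4.71 against WT and -4.94 against Dnmt1 KO. It became -2.46 and -2.06 with miRNA reads as denominator, and -5.56 and -5.95 with trimmed-mean factors.

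Uncalled values that turned sign were, in Dnmt1 KO against WT, Mir294 (0.0584 with medians of ratios, 0.40 with snoRNA and snRNA factors, 0.15 with factors made without miRNAs, 0.32 with A and B summed, -0.20 to 0.49 when a library was left out) and Mir295 (0.32 with snoRNA and snRNA factors, 0.0729 with factors made without miRNAs, 0.0851 with A and B summed, -0.38 to 0.43 when a library was left out). The ratio of Mir293 to the rest turned there too (0.25 without WT 2A and 2B, -0.54 to 0.52 when a library was left out). Against WT, the ratio of Mir291a ranged from -0.16 to 0.50 when a library was left out and that of Mir291b was -0.33 without WT 2A and 2B. The ratio of Mir294 in Dicer/Dnmt1 KO against Dnmt1 KO was 0.16 with 1 read added. The cause was not tested.

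Same-numbered WT and Dicer/Dnmt1 KO libraries correlated at -0.23, 0.11, -0.17 and -0.28 in their deviations, so the numbers did not pair them. With the replicate block 19 features were called higher and 94 lower against 35 and 130, and Mir290 (-2.69, limma adjusted p 0.0740) was lost. Members with under 10 reads in Dicer/Dnmt1 KO libraries limit any order among them.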
